A study of Mus musculus with 32 samples.

Results

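Complex I genes of the mouse oocyte were taken from a table of RNA-seq read counts per gene as every protein-coding gene whose RefSeq symbol starts with Nduf. The rule gave 49 genes of the 37441 in the table. They were 37 subunits of the enzyme, 8 assembly factors (Ndufaf1 to Ndufaf8) and 4 other Nduf-named genes, which are Ndufa4, Ndufa4l2 and the Ndufb4 copies Ndufb4b and Ndufb4c. All 49 passed the filter on low counts, so no member is missing from the counts below. The 5 further Nduf entries in RefSeq that are not protein coding were left out.

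Complex I, NADH:ubiquinone oxidoreductase, is the first enzyme of the respiratory chain. It is L-shaped, with a matrix arm that takes electrons from NADH through a flavin and iron-sulfur clusters to ubiquinone, and a membrane arm that pumps protons. Core subunits carry the chemistry, accessory subunits surround and stabilise them, and assembly factors help to build the enzyme but are absent from the finished one. The oocyte supplies the mitochondria of the next generation, and its full-grown stage is known for low transcription and for selective decay of stored messages as it matures.

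Oocytes were compared at 2 stages and in 3 kinds of female aged 8 to 12 weeks. Germinal vesicle (GV) oocytes are arrested in the first meiotic prophase and were held there during collection with the phosphodiesterase inhibitor IBMX, while metaphase II (MII) oocytes are mature and await fertilization. The females were of the inbred strains B6 and D2 and of their B6xD2 F1 hybrid, with no other allele or treatment named in the labels. Each library came from 9 to 20 oocytes of 1 mother with the zona pellucida removed, and its RNA was amplified before sequencing. GV oocytes gave 5 (B6), 5 (D2) and 6 (F1) libraries, and MII oocytes 6 (B6), 5 (D2) and 5 (F1).

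The 32 libraries held 18.7 to 39.7 M counts, with a median of 28.1 M. Batch 1 (18 libraries) and batch 2 (14 libraries) were sequenced on different instruments, every group had libraries of both, and batch was a term of the fit. Titles divide batch 2 into 2 dated sets, and its B6 libraries all belong to 1 set and its F1 MII libraries all to the other, so F1 against B6 in MII cannot be told apart from set within batch 2. The 11 oocyte markers summed to between 8081 and 13799.9 CPM in every library (counts-per-million after TMM, trimmed mean of M values, scaling). The 19 granulosa and cumulus markers, genes of the somatic cells around the oocyte, summed to 162 to 3904 CPM in GV libraries and to 100.2 to 204 CPM in MII libraries, where 1 of the 19 had no read at all. The highest of these markers in MII libraries were Nr5a2 (mean 82.9 CPM, 110 in GV) and Cyp19a1 (31.1, 30.8 in GV). Of the 17 such markers that were tested, 13 fell from GV to MII and 2 rose, against 29% and 22.9% of all genes tested. RNA of other cells can enter a pool, and fewer cells of a type and less RNA per cell cannot be told apart in such libraries.

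Promoters of the members are shown first, and whether their motifs go with the stage changes was not tested. RefSeq promoter windows of 300 bases (250 before and 50 after a start) were held for 42 of the 49 members. A match to the core of NRF1, a regulator of respiratory chain genes (GCGC, any 2 bases, GCGC), was found in 11 of the 42 members (26.2%) and in 7.00% of the 27025 genes with a window. The YY1 core, AANATGGCG, was in 8 members (19.0%) and in 2.76% of all genes. For the ETS/GABP core, CCGGAAG, the share was 6 members (14.3%) against 9.93% of all genes, and for the ERR core, CAAGGTCA, 1 member against 1.76%. Both strands were searched, no match overlaps that of another core in the windows printed, and a match is a description of the letters only. Subunits and assembly factors both held matches to the NRF1 core, 9 of 33 and 2 of 7 respectively.

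The windows of 4 genes described below are printed 5′ to 3′ on the gene's strand (RefSeq, GRCm38.p6), with motif matches in capitals. Ndufa11 is a subunit whose message fell steeply, Ndufs6 is a subunit with matches to 2 of the cores, Ndufaf4 is an assembly factor that did not fall, and Ndufaf2 is the assembly factor that differed between strains. The windows are chr17:56717512-56717811, plus strand (Ndufa11), chr13:73328433-73328732, minus strand (Ndufs6), chr4:24897833-24898132, plus strand (Ndufaf4) and chr13:108158576-108158875, minus strand (Ndufaf2).
Ndufa11: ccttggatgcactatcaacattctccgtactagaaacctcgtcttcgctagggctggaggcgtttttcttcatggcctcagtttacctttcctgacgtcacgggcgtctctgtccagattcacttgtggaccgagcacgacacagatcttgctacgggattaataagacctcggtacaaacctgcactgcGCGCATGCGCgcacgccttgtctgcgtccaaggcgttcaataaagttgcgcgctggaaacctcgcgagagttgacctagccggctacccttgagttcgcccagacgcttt
Ndufs6: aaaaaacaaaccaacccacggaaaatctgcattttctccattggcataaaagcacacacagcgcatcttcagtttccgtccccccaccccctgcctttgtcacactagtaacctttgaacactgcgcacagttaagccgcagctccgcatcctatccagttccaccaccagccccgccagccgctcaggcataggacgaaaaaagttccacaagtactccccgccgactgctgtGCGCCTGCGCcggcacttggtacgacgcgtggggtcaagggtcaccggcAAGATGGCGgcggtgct
Ndufaf4: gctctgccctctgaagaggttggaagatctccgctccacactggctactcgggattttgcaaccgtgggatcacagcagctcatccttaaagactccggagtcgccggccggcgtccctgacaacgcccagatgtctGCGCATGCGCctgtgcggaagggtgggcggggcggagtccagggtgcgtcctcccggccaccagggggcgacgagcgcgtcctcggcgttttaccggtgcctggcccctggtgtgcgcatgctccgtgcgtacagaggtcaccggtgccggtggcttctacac
Ndufaf2: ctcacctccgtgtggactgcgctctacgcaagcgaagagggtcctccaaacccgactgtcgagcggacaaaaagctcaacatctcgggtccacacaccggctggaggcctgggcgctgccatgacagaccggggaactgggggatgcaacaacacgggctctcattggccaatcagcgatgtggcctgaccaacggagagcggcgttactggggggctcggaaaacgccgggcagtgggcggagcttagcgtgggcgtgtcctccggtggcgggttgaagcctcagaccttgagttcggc
The capitals mark an NRF1 core in Ndufa11, Ndufs6 and Ndufaf4, and further downstream a YY1 core in Ndufs6. The Ndufaf2 window has none of the 4 cores, which says only that these letters are not in it. A gene whose message fell and one whose message did not thus both hold the NRF1 core.

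From GV to MII, 36 of the 37 subunits fell and none rose. The exception was Ndufa10. Called means an adjusted p under 0.05 (edgeR's quasi-likelihood test, Benjamini-Hochberg over all genes) for the mean of the 3 strains' MII minus GV changes. Of all 19003 genes tested, 29% were called lower and 22.9% higher. CPM is a share of a library's counts, so fell and rose describe shares here and not amounts of message per oocyte. The subunits' log2 changes ran from -4.36 to -0.12 with a median of -1.65, against a median of -0.06 over all genes tested. Of the 36 that fell, 6 fell less than 2-fold, 12 between 2-fold and 4-fold, and 18 at least 4-fold, among them 6 at 8-fold or more. Assembly factors were mixed, with 6 of 8 lower, 2 higher and a median of -1.36. Whether subunits and assembly factors differ as classes was not tested.

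In each library the summed level of the 37 subunits gives the same picture. It lay between 945 and 1152 CPM in the 9 GV libraries of batch 1 and between 317 and 489.8 CPM in the 9 MII libraries. In batch 2 it was 436 to 605 CPM in the 7 GV libraries and 172 to 226 CPM in the 7 MII libraries. Every MII library was below every GV library of its batch. GV libraries of batch 2 (median 553 CPM) were also below those of batch 1 (median 1067 CPM), so levels are given per batch below. Group means with SDs pool both batches, so such an SD holds the difference between batches as well as that between pools. The 8 assembly factors summed to 217 to 299 CPM (GV) and 181 to 302 CPM (MII) in batch 1. In batch 2 they summed to 193 to 276 CPM and 198 to 303 CPM, so the stages overlapped in both batches. Ndufaf4, described below, made up between 52.2% and 87.0% of this sum. Without Ndufaf4 and Ndufaf2, the 2 that rose, the sum was 52.9 to 72.6 CPM (GV) and 15.1 to 34.5 CPM (MII) in batch 1. In batch 2 that smaller sum was 27.9 to 46.2 CPM and 10.5 to 20.8 CPM, so its stages did not overlap within a batch. The factors left in it were all called lower in these same libraries. Its lack of overlap thus follows from that choice and is no separate support.

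**Figure D1:**
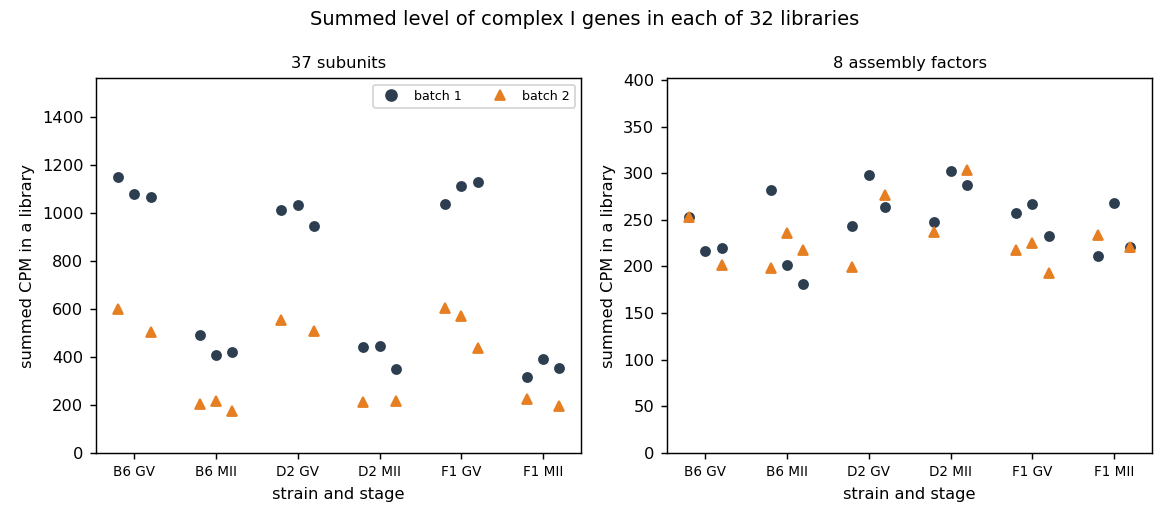
Summed CPM (vertical axes, from 0) of the 37 subunits and of the 8 assembly factors in each of the 32 libraries, by strain and stage, with circles for batch 1 and triangles for batch 2. Within a batch every MII library lies below every GV library for the subunits. The stages overlap for the sum of the assembly factors, most of which is Ndufaf4.

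Counted gene by gene, every MII library was below every GV library for 31 of 37 subunits in batch 1, where this held for 8.39% of all genes tested, and for 23 of 37 in batch 2, against 3.57%. The 23 had no overlap in both batches. Over all genes the share for both batches was not counted and can be at most 3.57%. For the 8 assembly factors the numbers were 2 in batch 1 and 1 in batch 2, with none in both. No member had every MII library above every GV library in either batch.

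**Figure D2:**
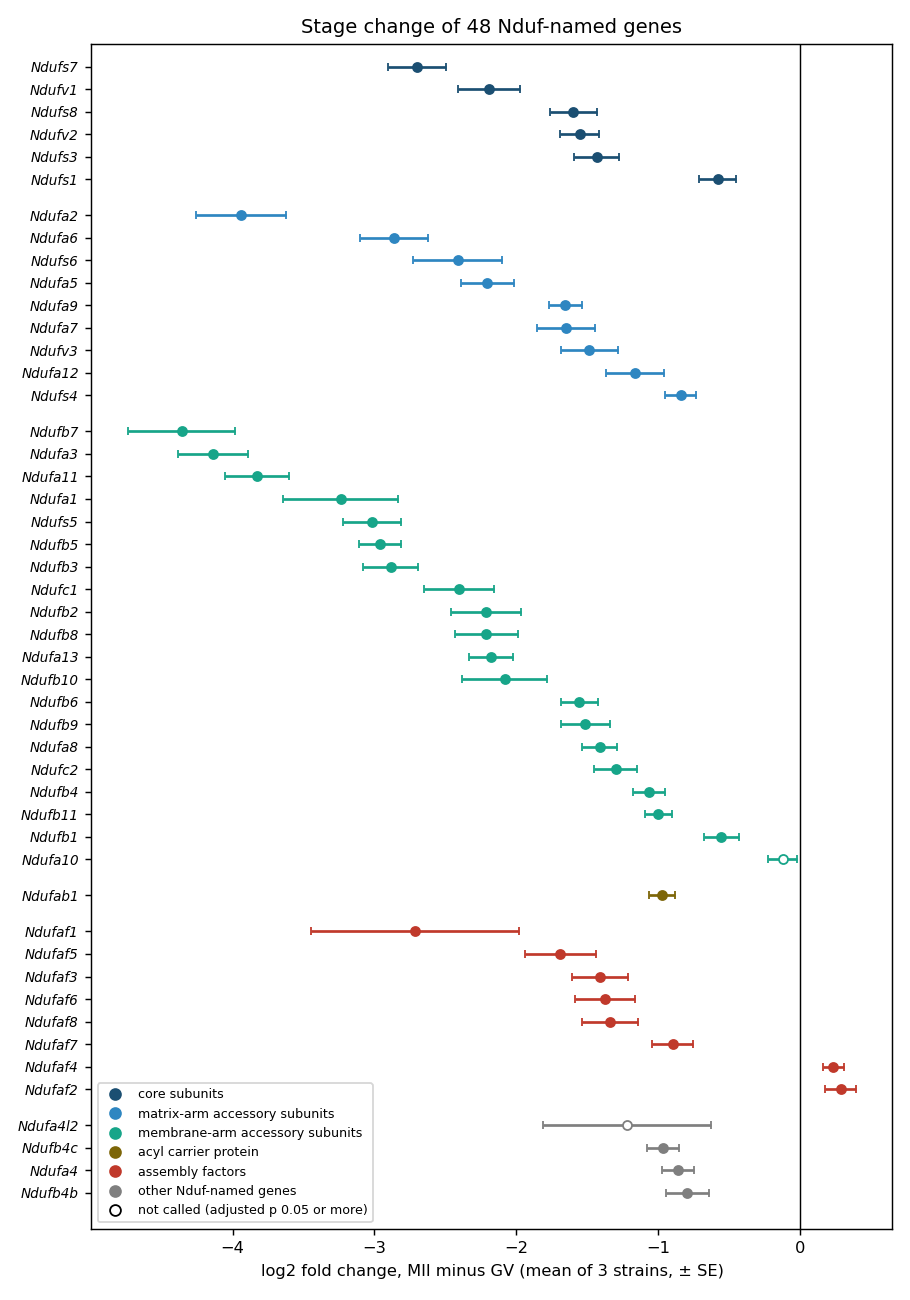
The log2 fold change from GV to MII (horizontal axis; mean of the 3 strains, bars are the SE of the fit) of 48 of the 49 members, grouped and coloured by role, with open circles for members that were not called. All subunits drawn lie left of 0, from -4.36 (Ndufb7) to -0.12 (Ndufa10), and Ndufaf2 and Ndufaf4 lie right of it.

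All 7 nuclear core subunits fell, with a median log2 change of -1.55. The change was largest in Ndufs7, followed by Ndufv1 and Ndufs8, and smallest in Ndufs1 (-0.58 ± 0.13 (SE, adjusted p = 0.000412)). Ndufs7 holds the last iron-sulfur cluster before ubiquinone. Ndufs7 ran from 16.2 to 25.6 CPM (median 21.3) in the 9 GV libraries of batch 1 and from 1.01 to 6.40 CPM (median 3.69) in the 9 MII libraries. The ranges of Ndufs7 in batch 2 were from 5.55 to 10.9 CPM (median 8.10) in 7 GV libraries and from 0.616 to 1.82 CPM (median 0.830) in 7 MII libraries. The stages did not overlap in either batch. Group means of Ndufs7 in GV oocytes were 17.5 ± 7.16 CPM in B6, 14.3 ± 8.54 in D2 and 14.7 ± 7.51 in F1 (SD, n = 5, 5 and 6). Those of Ndufs7 in MII oocytes were 2.44 ± 1.64, 3.01 ± 2.55 and 1.89 ± 1.18 CPM (n = 6, 5 and 5). Ndufs7 fell by 2.70 on the log2 scale (SE 0.21, adjusted p = 4.48e-13). Ndufv1 carries the flavin and binds NADH. Ndufv1 ran from 13.3 to 27.01 CPM (median 18.8) in the 9 GV libraries of batch 1 and from 1.74 to 6.68 CPM (median 3.58) in the 9 MII libraries. The ranges of Ndufv1 in batch 2 were from 3.95 to 18.2 CPM (median 6.41) in 7 GV libraries and from 1.60 to 4.28 CPM (median 2.59) in 7 MII libraries. Only in batch 2 did the highest MII library pass the lowest GV library. Group means of Ndufv1 in GV oocytes were 16.7 ± 11.7 CPM in B6, 12.1 ± 5.81 in D2 and 16.6 ± 3.52 in F1 (SD, n = 5, 5 and 6). Those of Ndufv1 in MII oocytes were 2.91 ± 1.02, 4.05 ± 1.64 and 2.38 ± 0.963 CPM (n = 6, 5 and 5). Ndufv1 fell by 2.20 on the log2 scale (SE 0.22, adjusted p = 3.05e-10). Ndufs8 holds a pair of iron-sulfur clusters. Ndufs8 ran from 6.93 to 13.8 CPM (median 12.2) in the 9 GV libraries of batch 1 and from 1.73 to 5.90 CPM (median 3.86) in the 9 MII libraries. The ranges of Ndufs8 in batch 2 were from 4.36 to 9.06 CPM (median 6.51) in 7 GV libraries and from 1.08 to 3.54 CPM (median 2.73) in 7 MII libraries. No overlap was seen in either batch. Group means of Ndufs8 in GV oocytes were 8.23 ± 2.84 CPM in B6, 9.77 ± 3.29 in D2 and 9.22 ± 3.91 in F1 (SD, n = 5, 5 and 6). Those of Ndufs8 in MII oocytes were 3.95 ± 1.23, 2.91 ± 1.07 and 2.18 ± 0.817 CPM (n = 6, 5 and 5). Ndufs8 fell by 1.60 on the log2 scale (SE 0.17, adjusted p = 8.96e-10). The 7 core subunits summed to 124 to 179.9 CPM in GV and 39.3 to 65.2 CPM in MII libraries of batch 1, and to 79.5 to 121 CPM and 39.1 to 57.2 CPM in batch 2.

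All 9 matrix-arm accessory subunits fell as well (median -1.65). Ndufa2 has a thioredoxin-like fold and sits near the NADH end. Ndufa2 ran from 36.1 to 62.5 CPM (median 51.00) in the 9 GV libraries of batch 1 and from 1.09 to 4.83 CPM (median 1.99) in the 9 MII libraries. The ranges of Ndufa2 in batch 2 were from 7.88 to 14.9 CPM (median 9.61) in 7 GV libraries and from 0 to 4.70 CPM (median 0.792) in 7 MII libraries. GV libraries of batch 1 stood far above all others, and 1 F1 MII library of batch 2 had no read, which allows up to 0.130 CPM (3 counts, counting error only). Group means of Ndufa2 in GV oocytes were 36.2 ± 25.2 CPM in B6, 29.4 ± 18.96 in D2 and 32.2 ± 23.2 in F1 (SD, n = 5, 5 and 6). Those of Ndufa2 in MII oocytes were 2.85 ± 1.82, 1.43 ± 1.01 and 1.35 ± 0.843 CPM (n = 6, 5 and 5). Ndufa2 fell by 3.94 on the log2 scale (SE 0.31, adjusted p = 1.08e-11). Ndufa6 is a small protein of the LYR family that binds the acyl carrier protein. Ndufa6 ran from 9.80 to 17.6 CPM (median 14.99) in the 9 GV libraries of batch 1 and from 0.937 to 3.09 CPM (median 1.98) in the 9 MII libraries. The ranges of Ndufa6 in batch 2 were from 1.91 to 8.09 CPM (median 4.89) in 7 GV libraries and from 0.119 to 1.82 CPM (median 0.511) in 7 MII libraries. The stages stayed apart within each batch. Group means of Ndufa6 in GV oocytes were 12.2 ± 5.17 CPM in B6, 9.25 ± 5.85 in D2 and 9.28 ± 5.83 in F1 (SD, n = 5, 5 and 6). Those of Ndufa6 in MII oocytes were 1.37 ± 0.974, 1.47 ± 1.34 and 1.29 ± 0.490 CPM (n = 6, 5 and 5). Ndufa6 fell by 2.86 on the log2 scale (SE 0.24, adjusted p = 4.66e-12). Ndufs6 is a zinc-binding subunit added late in assembly. Ndufs6 ran from 9.31 to 22.9 CPM (median 18.95) in the 9 GV libraries of batch 1 and from 0.144 to 5.50 CPM (median 1.43) in the 9 MII libraries. The ranges of Ndufs6 in batch 2 were from 3.47 to 11.8 CPM (median 6.66) in 7 GV libraries and from 0.821 to 3.85 CPM (median 2.43) in 7 MII libraries. Its batch 2 stages overlapped at their edges. Group means of Ndufs6 in GV oocytes were 15.8 ± 7.69 CPM in B6, 11.3 ± 5.30 in D2 and 11.7 ± 6.13 in F1 (SD, n = 5, 5 and 6). Those of Ndufs6 in MII oocytes were 2.78 ± 1.82, 2.41 ± 1.32 and 1.60 ± 0.842 CPM (n = 6, 5 and 5). Ndufs6 fell by 2.41 on the log2 scale (SE 0.31, adjusted p = 8.03e-08). The other 6, Ndufa5, Ndufa9, Ndufa7, Ndufv3, Ndufa12 and Ndufs4, had log2 changes between -2.21 (Ndufa5) and -0.84 (Ndufs4). Ndufs4, whose loss in mice is a model of mitochondrial disease, was thus the least changed of the class.

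Of the 20 membrane-arm accessory subunits 19 fell, with a median log2 change of -2.19. Ndufb7 is a twin-cysteine protein on the outer face of the membrane arm. Ndufb7 ran from 9.30 to 33.6 CPM (median 12.99) in the 9 GV libraries of batch 1 and from 0.0964 to 2.15 CPM (median 0.516) in the 9 MII libraries. The ranges of Ndufb7 in batch 2 were from 0.567 to 2.81 CPM (median 1.58) in 7 GV libraries and from 0 to 0.396 CPM (median 0.160) in 7 MII libraries. Few reads were left, since the 6 B6 MII libraries held 1 to 23 reads each, the 5 D2 MII libraries 4 to 71, and the 5 F1 MII libraries 0 to 20, with none in 2 of them (up to 0.130 CPM each). Group means of Ndufb7 in GV oocytes were 12.98 ± 13.7 CPM in B6, 7.40 ± 5.67 in D2 and 8.64 ± 8.26 in F1 (SD, n = 5, 5 and 6). Those of Ndufb7 in MII oocytes were 0.314 ± 0.258, 0.777 ± 0.827 and 0.208 ± 0.302 CPM (n = 6, 5 and 5). Ndufb7 fell by 4.36 on the log2 scale (SE 0.38, adjusted p = 1.21e-11). Ndufa11, a membrane subunit near the join of the arms, had a higher starting level. Ndufa11 ran from 34.4 to 54.4 CPM (median 37.8) in the 9 GV libraries of batch 1 and from 0.796 to 4.91 CPM (median 2.19) in the 9 MII libraries. The ranges of Ndufa11 in batch 2 were from 6.45 to 12.1 CPM (median 7.62) in 7 GV libraries and from 0.154 to 1.17 CPM (median 0.778) in 7 MII libraries. All 16 MII libraries were below all 16 GV libraries, batches together. Group means of Ndufa11 in GV oocytes were 25.9 ± 15.4 CPM in B6, 26.3 ± 17.4 in D2 and 26.4 ± 20.00 in F1 (SD, n = 5, 5 and 6). Those of Ndufa11 in MII oocytes were 1.75 ± 1.56, 2.48 ± 2.19 and 1.31 ± 0.598 CPM (n = 6, 5 and 5). Ndufa11 fell by 3.83 on the log2 scale (SE 0.23, adjusted p = 5.79e-16). Ndufa1 is a small single-span protein encoded on the X chromosome. Ndufa1 ran from 18.1 to 31.3 CPM (median 23.1) in the 9 GV libraries of batch 1 and from 0.796 to 10.6 CPM (median 4.68) in the 9 MII libraries. The ranges of Ndufa1 in batch 2 were from 6.001 to 27.1 CPM (median 13.4) in 7 GV libraries and from 0 to 2.79 CPM (median 0.501) in 7 MII libraries. One D2 MII library of batch 2 had no read (up to 0.127 CPM). Group means of Ndufa1 in GV oocytes were 21.9 ± 8.05 CPM in B6, 19.5 ± 5.61 in D2 and 19.6 ± 8.71 in F1 (SD, n = 5, 5 and 6). Those of Ndufa1 in MII oocytes were 4.26 ± 3.40, 3.85 ± 4.32 and 1.64 ± 1.85 CPM (n = 6, 5 and 5). Ndufa1 fell by 3.24 on the log2 scale (SE 0.40, adjusted p = 1.28e-07). Ndufa3 had a change of -4.14 but a mean of 3.78 CPM over all libraries, under the 5 CPM asked of a gene described in full. The next in size were Ndufs5 (-3.02), Ndufb5 (-2.96), Ndufb3 (-2.89), Ndufc1 (-2.40), Ndufb2 (-2.22), Ndufb8 (-2.21), Ndufa13 (-2.18) and Ndufb10 (-2.08). Smaller falls were those of Ndufb6 (-1.55), Ndufb9 (-1.51), Ndufa8 (-1.41), Ndufc2 (-1.30), Ndufb4 (-1.06), Ndufb11 (-0.998) and Ndufb1 (-0.55).

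Ndufa10 was the subunit that was not called, a protein with a nucleoside kinase-like fold on the matrix face of the membrane arm (chr1:92439486-92473825, GRCm38). Ndufa10 ran from 25.2 to 48.95 CPM (median 41.8) in the 9 GV libraries of batch 1 and from 34.1 to 65.5 CPM (median 43.3) in the 9 MII libraries. The ranges of Ndufa10 in batch 2 were from 22.6 to 34.6 CPM (median 30.3) in 7 GV libraries and from 17.5 to 25.6 CPM (median 22.4) in 7 MII libraries. In batch 1 the MII median was above the GV median, and in batch 2 it was below. Group means of Ndufa10 in GV oocytes were 39.2 ± 7.73 CPM in B6, 30.9 ± 5.96 in D2 and 36.8 ± 9.05 in F1 (SD, n = 5, 5 and 6). Those of Ndufa10 in MII oocytes were 37.1 ± 17.9, 31.2 ± 12.5 and 35.1 ± 12.7 CPM (n = 6, 5 and 5). The log2 change was -0.12 ± 0.10 (SE, adjusted p = 0.328). It was 0.14 ± 0.12 in batch 1 alone (adjusted p = 0.336) and -0.58 ± 0.14 in batch 2 alone, where it was called (adjusted p = 0.00829). Ndufab1 is the mitochondrial acyl carrier protein, present in both arms and also used in lipoic acid synthesis. Ndufab1 ran from 63.8 to 101 CPM (median 78.3) in the 9 GV libraries of batch 1 and from 40.3 to 53.4 CPM (median 43.4) in the 9 MII libraries. The ranges of Ndufab1 in batch 2 were from 38.4 to 63.03 CPM (median 50.1) in 7 GV libraries and from 13.1 to 25.7 CPM (median 21.6) in 7 MII libraries. Its stages did not overlap in either batch. Ndufab1 fell by 0.97 on the log2 scale (SE 0.09, adjusted p = 4.51e-11).

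**Figure D3:**
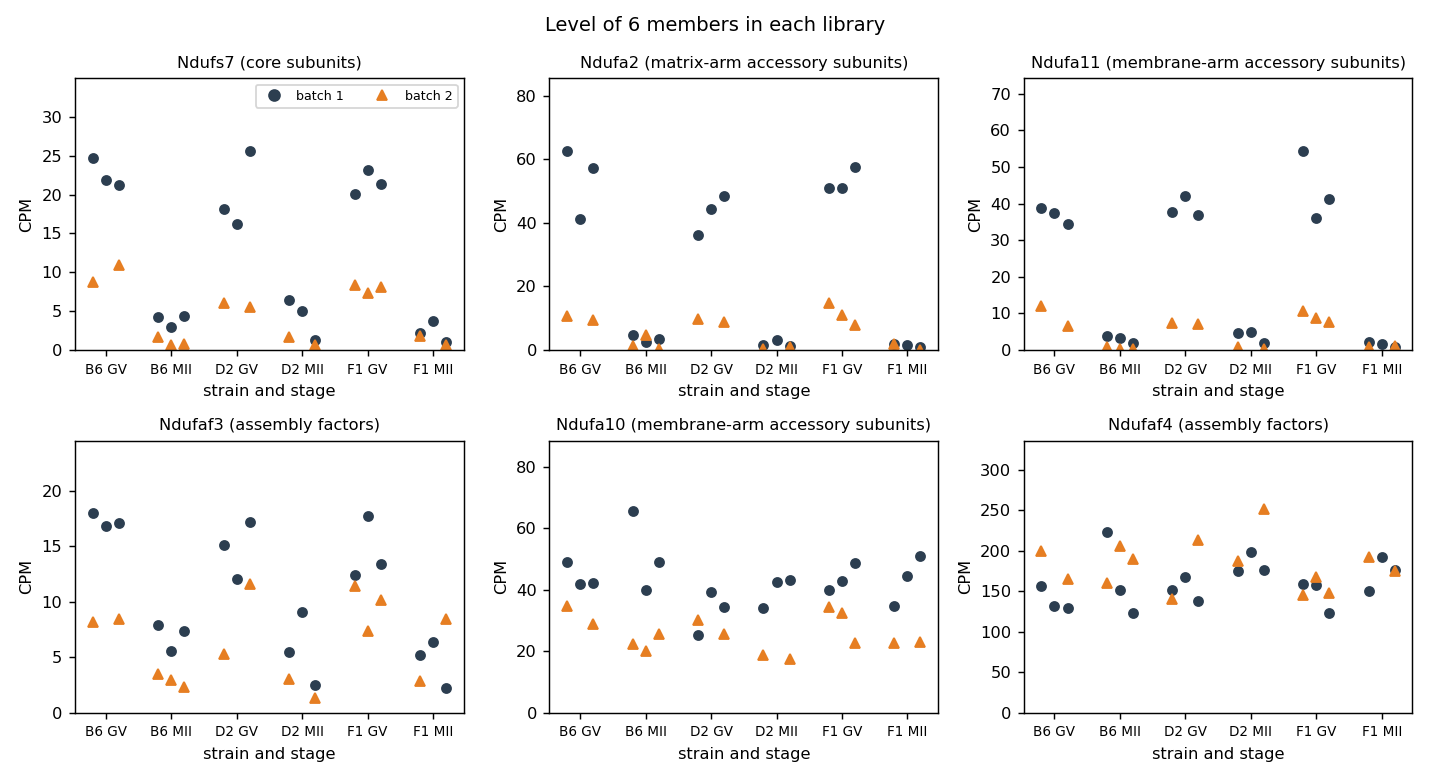
CPM (vertical axes, from 0) of 6 members in each library by strain and stage, with circles for batch 1 and triangles for batch 2. Within a batch, Ndufs7, Ndufa2 and Ndufa11 are lower in every MII library than in any GV library. Ndufaf3 is lower in most MII libraries, and Ndufa10 and Ndufaf4 overlap between stages.

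The 8 Ndufaf assembly factors split into 6 that fell and 2 that rose. Ndufaf5 adds a hydroxyl group to an arginine of Ndufs7. Ndufaf5 ran from 7.45 to 13.2 CPM (median 9.31) in the 9 GV libraries of batch 1 and from 0.724 to 14.1 CPM (median 2.52) in the 9 MII libraries. The ranges of Ndufaf5 in batch 2 were from 3.17 to 9.27 CPM (median 5.28) in 7 GV libraries and from 0.778 to 2.43 CPM (median 1.43) in 7 MII libraries. One B6 MII library of batch 1, at 14.1 CPM, was above every GV library. Group means of Ndufaf5 in GV oocytes were 7.48 ± 2.50 CPM in B6, 8.06 ± 3.97 in D2 and 7.83 ± 2.16 in F1 (SD, n = 5, 5 and 6). Those of Ndufaf5 in MII oocytes were 4.24 ± 4.97, 2.75 ± 1.49 and 1.40 ± 0.754 CPM (n = 6, 5 and 5). Ndufaf5 fell by 1.69 on the log2 scale (SE 0.25, adjusted p = 7.05e-07). Without that library the change was -1.91 (adjusted p = 4.36e-09). Ndufaf8 is the partner that stabilises Ndufaf5. Ndufaf8 ran from 8.81 to 15.6 CPM (median 12.6) in the 9 GV libraries of batch 1 and from 2.06 to 6.60 CPM (median 3.89) in the 9 MII libraries. The ranges of Ndufaf8 in batch 2 were from 1.77 to 6.84 CPM (median 3.82) in 7 GV libraries and from 0.475 to 3.39 CPM (median 2.30) in 7 MII libraries. The overlap was in batch 2 only. Group means of Ndufaf8 in GV oocytes were 9.43 ± 5.84 CPM in B6, 6.89 ± 3.69 in D2 and 9.47 ± 4.77 in F1 (SD, n = 5, 5 and 6). Those of Ndufaf8 in MII oocytes were 3.31 ± 1.26, 2.51 ± 1.87 and 3.87 ± 2.07 CPM (n = 6, 5 and 5). Ndufaf8 fell by 1.34 on the log2 scale (SE 0.20, adjusted p = 9.80e-07). Ndufaf3 acts early, on the part of the matrix arm that binds ubiquinone, together with Ndufaf4. Ndufaf3 ran from 12.1 to 18.01 CPM (median 16.8) in the 9 GV libraries of batch 1 and from 2.21 to 9.09 CPM (median 5.58) in the 9 MII libraries. The ranges of Ndufaf3 in batch 2 were from 5.25 to 11.6 CPM (median 8.47) in 7 GV libraries and from 1.35 to 8.45 CPM (median 2.97) in 7 MII libraries. Batch 2 stages overlapped through 1 F1 MII library. Group means of Ndufaf3 in GV oocytes were 13.7 ± 4.93 CPM in B6, 12.3 ± 4.53 in D2 and 12.1 ± 3.49 in F1 (SD, n = 5, 5 and 6). Those of Ndufaf3 in MII oocytes were 4.93 ± 2.37, 4.30 ± 3.08 and 5.01 ± 2.56 CPM (n = 6, 5 and 5). Ndufaf3 fell by 1.41 on the log2 scale (SE 0.20, adjusted p = 3.31e-07). Ndufaf6 (-1.38 ± 0.21 (SE, adjusted p = 1.26e-06)) and Ndufaf7, an arginine methyltransferase of the assembling enzyme (-0.90 ± 0.15 (SE, adjusted p = 4.32e-06)), fell too. Ndufaf1, which joins Ecsit, Acad9 and Tmem126b in building the membrane arm, fell from a low level, a mean of 1.31 CPM in GV and 0.187 CPM in MII libraries (-2.71 ± 0.73 (SE, adjusted p = 0.00221)). It had no read in 10 of the 32 libraries.

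Ndufaf4 and Ndufaf2 went the other way by a small amount, as shares of the counts. Ndufaf4 (chr4:24898083-24905001, GRCm38), the partner of Ndufaf3, had the most counts of any member, in a long transcript. Ndufaf4 ran from 123 to 168 CPM (median 151) in the 9 GV libraries of batch 1 and from 123 to 223 CPM (median 176) in the 9 MII libraries. The ranges of Ndufaf4 in batch 2 were from 141 to 213 CPM (median 165) in 7 GV libraries and from 160.1 to 252 CPM (median 189) in 7 MII libraries. The stages overlapped in both batches. Group means of Ndufaf4 in GV oocytes were 156 ± 28.8 CPM in B6, 162 ± 30.8 in D2 and 149.8 ± 15.5 in F1 (SD, n = 5, 5 and 6). Those of Ndufaf4 in MII oocytes were 175 ± 37.1, 198 ± 31.6 and 177 ± 17.01 CPM (n = 6, 5 and 5). Ndufaf4 was called higher in MII, with a log2 change of 0.23 ± 0.07 (SE, adjusted p = 0.00817). Its share of the summed CPM of the 8 assembly factors had a median of 58.9% in GV and 71.4% in MII libraries of batch 1. In batch 2 these medians were 76.3% and 82.3%. Ndufaf2 (chr13:108052589-108158652, GRCm38) resembles the subunit Ndufa12 and holds its place in the immature enzyme. Ndufaf2 ran from 19.1 to 64.4 CPM (median 38.1) in the 9 GV libraries of batch 1 and from 22.3 to 92.2 CPM (median 34.2) in the 9 MII libraries. The ranges of Ndufaf2 in batch 2 were from 8.59 to 27.4 CPM (median 18.9) in 7 GV libraries and from 14.4 to 39.6 CPM (median 25.5) in 7 MII libraries. The stages overlapped widely. Ndufaf2 was called higher at 0.29 ± 0.11 (SE, adjusted p = 0.0263), while Ndufa12 fell (-1.17 ± 0.20 (SE, adjusted p = 1.21e-05)). Neither rise was called in a single batch: for Ndufaf4 the change was 0.24 in batch 1 (adjusted p = 0.0645) and 0.12 in batch 2 (0.428), and for Ndufaf2 0.12 (0.533) and 0.41 (0.0933). Of assembly factors without an Nduf symbol, 6 of 10 fell and none rose (median -0.67), against 29% and 22.9% of all genes tested. Ecsit was the most changed of them (-1.41 ± 0.16, adjusted p = 8.36e-09).

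The summed granulosa marker level moved with stage, so the subunits are given beside it. In batch 2, 3 GV libraries, 1 of each strain, had a mean log2 granulosa marker level between -0.23 and 0.48, within the range of the 7 MII libraries of that batch (-0.53 to 0.70), while the other 4 had 2.17 to 4.01. The 37 subunits summed to 508 to 605 CPM in those 3 libraries, to 436 to 569 CPM in the other 4, and to 172 to 226 CPM in the MII libraries. In batch 2 the subunit sums of GV libraries with few granulosa messages overlapped those of the others. GV libraries of batch 1 all had marker levels of 2.42 to 3.89, so that batch allows no such comparison. Whether granulosa RNA has a part in the stage change was not tested. The 3 were above all 7 MII libraries for 29 of 37 subunits and 4 of 8 assembly factors, and this held for 6.11% of all genes tested. The other 4 were above them for 25 subunits and 1 assembly factor, against 8.22% of all genes. Without the 3 libraries 36 subunits were again lower. With the marker level as a covariate 34 subunits and 5 assembly factors were lower, none was higher, and of all genes 8.41% were lower and 5.94% higher. Ndufaf4 was then at -0.02 (adjusted p = 0.945). Because the marker level moved with stage, the covariate fit cannot fully separate marker level from stage.

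The 4 other Nduf-named genes were lower or not called. Ndufa4, now placed with cytochrome c oxidase, changed by -0.86 ± 0.11 (SE, adjusted p = 6.96e-08). Ndufa4 ran from 32.4 to 48.9 CPM (median 39.9) in the 9 GV libraries of batch 1 and from 13.9 to 39.7 CPM (median 25.6) in the 9 MII libraries. The ranges of Ndufa4 in batch 2 were from 25.5 to 38.5 CPM (median 34.1) in 7 GV libraries and from 9.64 to 21.6 CPM (median 15.9) in 7 MII libraries. Its stages overlapped in batch 1 only. Ndufa4l2, its hypoxia-induced paralog, was near the limit of detection and was not called (-1.22 ± 0.59 (SE, adjusted p = 0.0842)). Ndufa4l2 ran from 0.431 to 5.41 CPM (median 1.37) in the 9 GV libraries of batch 1 and from 0.180 to 4.59 CPM (median 0.665) in the 9 MII libraries. The ranges of Ndufa4l2 in batch 2 were from 0 to 3.16 CPM (median 0.161) in 7 GV libraries and from 0 to 0.924 CPM (median 0.211) in 7 MII libraries. Group means of Ndufa4l2 in GV oocytes were 1.41 ± 1.14 CPM in B6, 1.82 ± 2.18 in D2 and 1.43 ± 1.76 in F1 (SD, n = 5, 5 and 6). Those of Ndufa4l2 in MII oocytes were 0.606 ± 0.582, 1.47 ± 1.88 and 0.441 ± 0.399 CPM (n = 6, 5 and 5). Ndufb4c (-0.97 ± 0.11 (SE, adjusted p = 1.12e-08)) and Ndufb4b (-0.79 ± 0.15 (SE, adjusted p = 4.46e-05)) lie inside Mroh5 and Dock8 and resemble Ndufb4. Ndufb4c counted 0.847 to 0.987 of the Ndufb4 CPM in all 32 libraries (median 0.919), and Ndufb4b 0.104 to 0.323. The rule for reads shared by such copies was not stated in the labels, so the values of these 3 genes, Ndufb4 among the subunits included, are uncertain.

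Per kilobase of the longest annotated transcript (GENCODE M21, held for 46 members), levels of different genes can be set side by side, as means over the libraries of a stage and batch. In GV libraries of batch 1 Ndufa2 led with 87.3 CPM per kb, followed by Ndufb4 (70.1), Ndufb11 (66.6), Ndufa4 (65.3), Ndufa1 (58.4) and Ndufaf2 (56.6). In batch 2 the order in GV was Ndufa4 (55.9), Ndufaf4 (46.3), Ndufa1 (35.7), Ndufb9 (34.3), Ndufaf2 (28.5) and Ndufb4 (23.7), and Ndufa2 was at 18.04 CPM per kb. The order in GV thus differed between batches. In MII libraries Ndufaf2 (64.5), Ndufaf4 (47.9) and Ndufa4 (42.1) came first in batch 1, and Ndufaf4 (53.5), Ndufaf2 (37.2) and Ndufa4 (26.1) in batch 2. By strain this pair of assembly factors stood first in D2 (83.2 for Ndufaf2 and 54.4 for Ndufaf4) and F1 (48.3 and 48.8) MII oocytes. In B6 MII oocytes Ndufa4 (39.5) stood between Ndufaf4 (48.3) and Ndufaf2 (30.6). Ndufa2 was at 4.17 (batch 1) and 2.39 CPM per kb (batch 2) in MII libraries. Over all GV libraries, Ndufaf1 (0.884), Ndufa4l2 (1.66), Ndufb2 (2.10) and Ndufs1 (3.85) were at the low end. Neighbours such as Ndufaf2 and Ndufaf4 in F1 do not differ beyond their spread, since their group SDs are larger than the gap. The order also depends on the transcript chosen, and Ndufb2 was given a long one of 4371 bases.

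Short transcripts fell most among the subunits. Spearman's rho between transcript length and log2 stage change was 0.52 over 36 subunits and 0.21 over 14927 tested genes with a length, as a description across genes measured in the same libraries. In the 19 subunits of up to 1000 bases the median change was -2.41, against -0.85 for all 856 tested genes of that length, of which 53.3% were called lower. From 1000 to 2000 bases it was -1.58 in 12 subunits and -0.34 in 2992 genes. Above 2000 bases it was -0.97 in 5 subunits, with Ndufa10 among them, and 0.05 in 11079 genes. Subunits were thus below the median of all genes in each length band. The assembly factors did not follow a length order, with medians of -0.53, -1.55 and -0.33 in the same bands (2, 4 and 2 genes). Level in GV also ran with the change (rho 0.46 over 37 subunits and 0.36 over all 19003 genes), so that members with fewer counts in GV tended to fall more. What part length, level or the RNA amplification has in the changes was not tested.

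**Figure D4:**
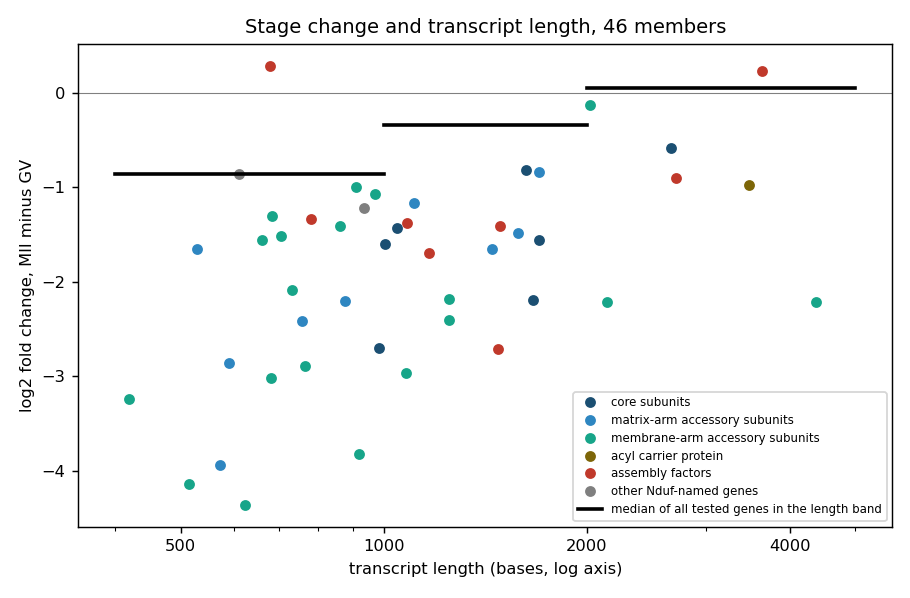
The log2 change from GV to MII (vertical axis) against the length of the longest transcript (horizontal axis, bases, log scale) for 46 members coloured by role, with black lines for the median of all tested genes in 3 length bands. Most subunits lie below the line of their band, and the short transcript of Ndufaf2 (678 bases) lies above 0.

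Genes of the other respiratory complexes are given for reference, from lists of nuclear genes. Of all genes tested, 29% were lower and 22.9% higher. Complex III fell in 9 of 9 genes (median -1.52), with Uqcr11 the most changed (-5.27 ± 0.32, adjusted p = 2.45e-15). For complex IV it was 9 of 10 (median -1.83), led by Cox4i1 (-3.89 ± 0.21, adjusted p = 8.12e-17), and for the ATP synthase 15 of 15 (median -1.75), led by Atp5k, a membrane subunit (-4.84 ± 0.22, adjusted p = 5.86e-19). None of these rose. Complex II, succinate dehydrogenase, was mixed, with Sdhb (-1.77 ± 0.18, adjusted p = 5.49e-10) and Sdhd lower and Sdha, its flavin subunit, higher (0.23 ± 0.07, adjusted p = 0.00362). Of 10 tested regulators of mitochondrial gene expression 3 rose and 2 fell (median 0.01). These counts are near the shares of all genes and are no result about the regulators as a list. The regulators that fell were Gabpa, an ETS factor (-2.74 ± 0.47, adjusted p = 1.08e-05), and the mitochondrial RNA polymerase Polrmt (-0.60 ± 0.16, adjusted p = 0.00210). The complex I subunits' median of -1.65 lay between the medians of the complex III and complex IV lists.

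The fall was also tested within each strain. In B6, 36 subunits were lower (16.4% of all genes tested), in D2 33 (15.6%) and in F1 35 (18%), and 33 of 37 were lower in all 3. The share of all genes lower in all 3 strains was not counted and can be at most the lowest of these, 15.6%. All 37 subunits had a negative log2 change in each strain, against 53% (B6), 51.6% (D2) and 54% (F1) of all genes tested. Assembly factors were lower in 3, 5 and 5 cases, and only Ndufaf3 and Ndufaf8 in all 3 strains. No member's stage change differed between strains in the test of the difference itself. That test called 0.105% of all genes for D2 against B6, 0.0105% for F1 against B6 and 0.0316% for F1 against D2. At an unadjusted p under 0.05 (edgeR) there were 3, 11 and 4 of 49 members, against 9.58%, 8.14% and 5.49% of all genes tested. The lowest adjusted p was 0.239, that of Ndufb6, which fell by 2.21 in B6, 1.17 in D2 and 1.29 in F1 on the log2 scale.

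Between the parental strains few members differed. In GV, 2 of 49 members were called (20.5% of all genes tested), 1 in each direction, and in MII 4 of 49 (26.4%), 3 higher and 1 lower in D2. Both are below the share of all genes. Ndufaf2 was called at both stages and was the called member with at least a 2-fold difference. Its levels in B6 GV were 8.59, 13.6, 19.1, 24.6 and 28.4 CPM, and in D2 GV 26.9, 27.4, 38.7, 57.3 and 64.4 CPM. Every D2 GV library was above the B6 GV libraries of its batch. In MII it ran from 14.4 to 27.8 CPM (median 19.9) in the 6 B6 libraries and was 35.6, 39.6, 46.01, 68.7 and 92.2 CPM in the D2 libraries, so that no D2 library was as low as the highest of B6. Group means of Ndufaf2 in GV oocytes were 18.9 ± 8.01 CPM in B6, 42.9 ± 17.2 in D2 and 28.6 ± 11.03 in F1 (SD, n = 5, 5 and 6). Those of Ndufaf2 in MII oocytes were 20.7 ± 5.17, 56.4 ± 23.7 and 32.7 ± 9.04 CPM (n = 6, 5 and 5). Ndufaf2 was higher in D2 by a log2 difference of 1.20 ± 0.20 (SE, adjusted p = 1.33e-05) in GV and 1.33 ± 0.19 (SE, adjusted p = 6.98e-07) in MII. Within batches the difference was 1.21 (batch 1) and 1.32 (batch 2) in GV and 1.41 and 1.14 in MII, all called. The gene overlaps the lncRNA Gm52057 over 5149 bases, and the labels do not state whether reads were counted by strand.

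The F1 hybrid was between its parents for Ndufaf2. Its levels ran from 13.1 to 40.8 CPM (median 30.4) in 6 GV libraries and were 25.5, 26.8, 29.3, 34.2 and 47.8 CPM in MII libraries. Against B6 the F1 was higher by 0.70 ± 0.19 (SE, adjusted p = 0.0208) in GV and 0.59 ± 0.18 (SE, adjusted p = 0.0428) in MII. Against D2 it differed by -0.51 ± 0.18 (SE, adjusted p = 0.112) in GV, which was not called, and -0.74 ± 0.19 (SE, adjusted p = 0.0112) in MII. These comparisons share libraries with each other and with the parental one. The 2 calls against B6 were lost in each batch alone (adjusted p 0.132 to 0.394), the GV one also without either of 2 libraries, and the MII one without any 1 of 8. With the 2 dated sets of batch 2 as separate terms, both were also lost (0.61, adjusted p = 0.0664 in GV and 0.45, adjusted p = 0.202 in MII). The call against D2 was lost in batch 2 alone (-0.49, adjusted p = 0.576) and without either of 2 libraries. Against the mean of the parents' log2 levels neither stage was called (0.09 ± 0.16 (SE, adjusted p = 0.988) and -0.07 ± 0.17 (SE, adjusted p = 0.932)).

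**Figure D5:**
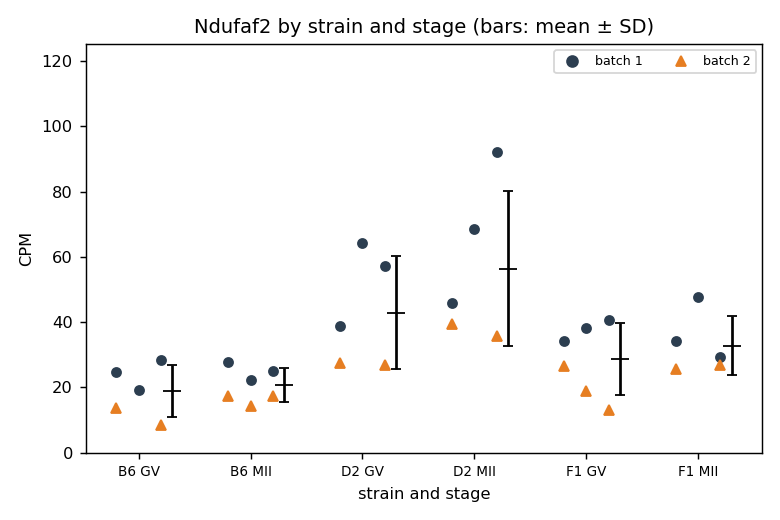
Ndufaf2 level in CPM (vertical axis, from 0) in each library by strain and stage, with circles for batch 1, triangles for batch 2, and bars for the group mean ± SD. At each stage the D2 mean (42.9 and 56.4 CPM) is above the F1 mean (28.6 and 32.7), which is above the B6 mean (18.9 and 20.7).

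The other called differences between B6 and D2 were under 2-fold, and these genes are named after their values were seen. Differences past 2-fold that were not called were those of Ndufaf1 in GV (1.79 ± 1.31 (SE, adjusted p = 0.391)) and, in MII, of Ndufaf1 (-1.42 ± 1.34 (SE, adjusted p = 0.477)), Ndufa2 (-1.35 ± 0.52 (SE, adjusted p = 0.0543)) and Ndufb7 (1.08 ± 0.64 (SE, adjusted p = 0.225)). Ndufb1, a small membrane-arm subunit, was lower in D2 GV oocytes at 18.1, 18.8, 34.7, 37.4 and 47.6 CPM against 22.3, 39.3, 46.3, 65.9 and 66.4 CPM in B6 (-0.64 ± 0.22 (SE, adjusted p = 0.0306)). That call was lost in each batch alone (adjusted p 0.0943 and 0.323) and without any 1 of 14 libraries. Ndufb9, another LYR protein, was higher in D2 MII oocytes (0.995 ± 0.29 (SE, adjusted p = 0.00978)), at 7.60, 7.86, 8.74, 9.50 and 18.5 CPM against 2.27 to 7.42 CPM in 6 B6 libraries. Without the D2 MII library of 18.5 CPM the difference was 0.76 (adjusted p = 0.0596). Ndufb6 (0.95 ± 0.22 (SE, adjusted p = 0.00108)) was higher and Ndufc2, another membrane-arm subunit, lower (-0.74 ± 0.26 (SE, adjusted p = 0.0295)) in D2 MII oocytes. The Ndufc2 call was lost without any 1 of 7 libraries.

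In F1 oocytes 5 members differed from B6 in MII (7.36% of all genes tested) and 2 from D2 (8.11%), while in GV 1 differed from B6 (5.5%) and none from D2 (6.05%). For F1 against D2 in GV the lowest adjusted p was 0.112. There 2 members had an unadjusted p under 0.05 (edgeR), against 16.1% of all genes tested. Beside Ndufaf2, the 5 were Ndufb6, Ndufc2, Ndufa13 and Ndufaf5. Ndufb6 was 3.03, 4.11, 6.20, 6.62 and 7.60 CPM in F1 MII libraries against 1.05 to 6.56 CPM (median 2.94) in B6, a difference of 0.84 ± 0.22 (SE, adjusted p = 0.0127). It was not called without F1 MII replicate 1 of batch 2 (adjusted p = 0.0664). Ndufc2 was 1.65, 2.81, 12.4, 13.3 and 13.6 CPM against 2.27 to 32.9 CPM (median 12.4), a difference of -0.91 ± 0.26 (SE, adjusted p = 0.0252). Group means of Ndufb6 in GV oocytes were 14.99 ± 6.56 CPM in B6, 13.8 ± 5.92 in D2 and 13.3 ± 6.99 in F1 (SD, n = 5, 5 and 6). Those of Ndufb6 in MII oocytes were 3.29 ± 2.35, 6.80 ± 3.99 and 5.51 ± 1.88 CPM (n = 6, 5 and 5). Group means of Ndufc2 in GV oocytes were 25.7 ± 15.8 CPM in B6, 21.6 ± 10.3 in D2 and 20.8 ± 10.7 in F1 (SD, n = 5, 5 and 6). Those of Ndufc2 in MII oocytes were 15.2 ± 13.2, 9.89 ± 7.08 and 8.74 ± 5.98 CPM (n = 6, 5 and 5). In both genes batch 2 libraries were the lowest of each group.

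Ndufa13, also known as GRIM-19 and needed for assembly of the membrane arm, was lower in F1 MII oocytes. Its levels were 1.43, 1.94, 2.19, 2.57 and 4.94 CPM against 1.69 to 9.69 CPM (median 4.66) in B6, a difference of -0.93 ± 0.27 (SE, adjusted p = 0.0254). With the dated sets as terms it was -0.89 (adjusted p = 0.0617). It shares 375 bases with Tssk6. Group means of Ndufa13 in GV oocytes were 16.01 ± 5.62 CPM in B6, 19.7 ± 6.67 in D2 and 16.00 ± 6.83 in F1 (SD, n = 5, 5 and 6). Those of Ndufa13 in MII oocytes were 4.99 ± 3.05, 4.71 ± 2.69 and 2.61 ± 1.37 CPM (n = 6, 5 and 5). Ndufaf5 was 0.724, 0.778, 1.08, 2.09 and 2.32 CPM against 0.798 to 14.1 CPM (median 2.48), a difference of -1.51 ± 0.43 (SE, adjusted p = 0.0261). Without the B6 library of 14.1 CPM it was -0.82 (adjusted p = 0.195). Ndufb7 was lower in F1 than in D2 MII oocytes (-2.28 ± 0.70 (SE, adjusted p = 0.0359)). That rests on 29 reads in all 5 F1 libraries and 121 in all 5 D2 libraries, of which 71 were in 1 library, and the call was lost without any 1 of 7 libraries. The Ndufa13 call, like that of Ndufc2, was lost without any 1 of 4 libraries.

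Against the mean of the parents no member was called in either stage, where 0.879% (GV) and 1.16% (MII) of all genes were. In GV none of the 49 had an unadjusted p under 0.05 (edgeR), and in MII 13 had, against 6.97% and 10.7% of all genes. The lowest adjusted p was 0.849 in GV and 0.0821 in MII. The 49 log2 differences had a median of 0.04 in GV and -0.31 in MII, with 37 of 49 below 0 in MII. Over all genes the median was 0.01 in both stages, with 48.8% below 0 in MII. This describes the members side by side and is no test of the group.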

How the data were processed

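Per the labels' protocols, RNA of oocyte pools was amplified (SPIA), made into libraries with 12 PCR cycles and sequenced from 1 end over 50 nt. Per the submitters' processing notes, HISAT2, SAMtools, featureCounts of Subread 1.5.1 and DESeq2 1.16.1 were used with GRCm38.p4. How the counter treated strand and multi-mapped reads is not given in the sources used here. All values start from raw read counts per gene that the authors deposited. Of 37444 entries 3 named no gene (at most 0.019% of a library). RefSeq symbols matched 36371 entries. Counts were filtered with filterByExpr, scaled by TMM and fitted with edgeR 4.0.16 (robust quasi-likelihood, 6 groups plus batch, 15 contrasts, two-sided, Benjamini-Hochberg over 19003 genes, threshold 0.05), in R 4.3.3. The SE was the log2 change divided by the square root of F. Reads had no molecular identifiers, so floors of 3 counts cover counting error only. The script was tested on simulated data. Named genes were the 3 most changed called members per role class with a mean of at least 5 CPM, members that rose or were not called, members at least 2-fold apart between parents (at most 8), and called members in the F1 and difference comparisons (at most 6). Other pathway genes named were the most changed per list and those against its median. Values of 1 member are not reported here by name. The members and lists were chosen with earlier results of these data known. No pairing of GV and MII samples by library number was seen (0 of 11 same-numbered pairs correlated above 0.1, range -0.13 to 0.10). That check used deviations from means of 2 or 3 libraries, so it is weak and cannot exclude a pairing. Alternatives were other scalings and filters, DESeq2 1.42.0, limma-voom (limma 3.58.1), each batch alone, no batch term, the 2 dated sets of batch 2 as terms (added after seeing the data), a replicate block, a granulosa covariate, omission of the 3 GV libraries with few granulosa messages, and leaving out each library. Promoters came from RefSeq (GRCm38.p6) and lengths from GENCODE M21. Figures used Python 3.11.15 and matplotlib 3.10.9.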

Additional observations from a re-analysis of the deposited data

Results flagged for a closer look

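In 138 sets of values, 21 described members and the 2 summed levels in each of 6 groups, 2 libraries stood apart from the rest of their group. Chance alone marks about 1 set in 20. Ndufaf5 was at 14.1 CPM in B6 MII replicate 3 of batch 1, while the other 5 B6 MII libraries lay between 0.798 and 4.13 CPM. Ndufb9 was at 18.5 CPM in D2 MII replicate 1 of batch 2, while the other 4 D2 MII libraries lay between 7.60 and 9.50 CPM.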

How the results depend on the processing

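Over 45 alternatives, of which 32 left out 1 library each, the subunits lower in MII numbered 34 to 36 and none was higher. The lowest, 34, came with the granulosa level as a covariate. The assembly factors lower in MII numbered 5 or 6, and the members whose stage change differed between strains 0 in each. With the replicate block the numbers were 36 subunits lower, 6 assembly factors lower and 2 higher, so the block changed no count of the stage comparison; it ended the calls of Ndufc2 in MII (D2 against B6 and F1 against B6) and of Ndufaf2, Ndufa13 and Ndufaf5 (F1 against B6 in MII). Assembly factors higher in MII went from 2 to 1 with median-of-ratios scaling, with the filter of 1 CPM in at least 16 libraries and with no batch term, and to 0 in batch 1 alone, in batch 2 alone and with the granulosa covariate, where Ndufaf4 was at -0.0223 (adjusted p = 0.945). Leaving out 1 library gave 1 to 2, with 1 without B6 GV replicate 2 of batch 2, F1 GV replicate 2, F1 MII replicate 4 or D2 MII replicate 4 of batch 1. D2 against B6 in GV went from 2 to 1 in each batch alone, with no batch term and without the 3 GV libraries of low granulosa level, and to between 1 and 2 with 1 library left out. It was 1 without any of the 5 D2 GV libraries, without B6 GV replicate 1 of batch 2 or replicates 2 and 4 of batch 1, without B6 MII replicates 2 and 3, F1 GV replicates 2 and 3 or F1 MII replicate 4 of batch 1, or without F1 GV replicate 3 of batch 2; Ndufaf2 was the gene left. D2 against B6 in MII went from 4 to 2 with no batch term, and to between 2 and 6 with 1 library left out, with 2 without D2 MII replicate 1 of batch 2. Members differing between F1 and a parent went from 6 to 12 with DESeq2, 1 in batch 2 alone and 0 with no batch term, and to between 3 and 8 with 1 library left out, with 3 without B6 MII replicate 3 of batch 1. Smaller changes of that count are not listed setting by setting. The 2 dated sets of batch 2 as separate terms were chosen after seeing the data. They left 36 subunits lower, 6 assembly factors lower and 2 higher in MII. They ended the calls of Ndufaf2 (GV and MII) and Ndufa13 (MII) for F1 against B6. Of 1347 values of single genes under the alternatives, 1228 kept their direction and side of the threshold, 113 lost the call, 4 gained it and 2 changed sign, Ndufaf4 as above and Ndufa10, which was not called, at 0.145 in batch 1 alone. The causes were not tested, except that fits on 1 batch use fewer libraries. At the levels of Ndufb7, Ndufaf1 and Ndufa4l2 in MII, a few reads per library limit the precision.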
